A study of Mus musculus with 25 samples.

Results

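The genes described here are 10 genes of the neutrophil: S100a8, S100a9, Ly6g, Retnlg, Mpo, Elane, Camp, Ngp, Ltf and Lcn2. They were chosen by name as genes that mark neutrophils or their granules, and all 10 were found by symbol among the 24984 genes of the count table. The libraries that bear on them come from the stroma of tumours in 4 athymic nude mice, an immunodeficient strain that lacks the thymus and therefore mature T cells but keeps granulocytes. The tumours grew from bipotential mouse embryonic liver (BMEL) cells, a line of C57B/6_C3H origin expressing the oncogene HRasG12V. Each mouse had a tumour in the liver, where the cells were injected, and another in the peritoneum. The paper holds that the peritoneal tumours likely came from cells that leaked at injection and not from true metastasis. Both tumours of a mouse were dissociated and sorted by GFP, which gave 4 libraries each of liver tumour cells, peritoneal tumour cells, liver stroma and peritoneal stroma. A further 9 libraries came from cultures without stroma, 3 each of control BMEL cells with an empty vector, RasLOW cells and RasHIGH cells, which carry low and high levels of the oncogene. Age, sex and the time after injection were not given in the labels used here, and neither was the Ras population that each sequenced tumour grew from. No neutrophil was sorted as such. The stromal fraction held every GFP-negative cell of the tumour, so in these bulk libraries fewer neutrophils and less RNA per neutrophil cannot be told apart.

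Neutrophils are short-lived granulocytes made in the bone marrow, and they fill their granules in an order. Primary granules with myeloperoxidase and elastase are made in promyelocytes, secondary granules with lactoferrin and cathelicidin in myelocytes, and the transcripts of these granule proteins fall as the cell matures. The cytosolic S100 proteins and the surface protein Ly6G persist in the mature cell, which is drawn into tissue by chemokines that act on Cxcr2 and is kept alive by signals through the G-CSF receptor Csf3r. In tumours neutrophils are known both as killers of tumour cells and as helpers of tumour growth, and the question put to these genes was how far their levels differed between the liver and the peritoneum.

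Total counts lay between 23129017 and 51241336 in the 16 sorted libraries, where 3 counts correspond to 0.0585 to 0.13 CPM, the count scaled to a library total of 1e+06, a limit that covers counting error only. The leukocyte markers Ptprc, Itgb2, Coro1a, Laptm5 and Cd53 summed to between 3787 and 4327 CPM in liver stroma and to between 2312 and 2724 CPM in peritoneal stroma. Fibroblast markers, led by Col1a1 and Col3a1, summed to between 2845 and 5950 CPM in liver stroma and to between 39646 and 57275 CPM in peritoneal stroma. Neutrophil transcripts were therefore measured against leukocyte marker levels that were lower in the peritoneum. The peritoneal stroma of mouse 1 stood apart from the other 3 peritoneal stromal libraries in every one of the 10 genes, so each result that rests on it is given with and without it. In the library descriptions, lane 1 held all libraries of mouse 1 with the liver libraries of mouse 2, lane 2 the other libraries of mouse 2 with those of mouse 3, and lane 3 the sorted libraries of mouse 4. Lane 3 also held control BMEL cultures 1 and 2, and lane 4 held control BMEL culture 3 with all RasLOW and RasHIGH cultures.

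S100a8 and S100a9, which form the calcium-binding dimer calprotectin of the neutrophil cytosol, were the most abundant of the 10 genes per length of transcript in both stromata. They are neighbours on chromosome 3 (mm9, S100a8 on the plus strand at chr3:90472993-90473956 and S100a9 on the minus strand at chr3:90496554-90499643), with no other protein-coding gene between them in GENCODE M1. S100a8 reached 186, 309, 338 and 200.3 CPM in the liver stroma of mice 1 to 4, and 1011, 58.1, 52.3 and 56.3 CPM in their peritoneal stroma. S100a9 reached 329, 463, 612 and 341 CPM in the liver stroma and 1277, 125, 129 and 114 CPM in the peritoneal stroma of the same mice. Mice 2 to 4 had the higher level in the liver for both genes, mouse 1 had it in the peritoneum, and the ranges of the 2 groups overlapped. The ratio of S100a9 to S100a8 CPM was 1.5 to 1.81 in liver stroma, 2.02 to 2.47 in the peritoneal stroma of mice 2 to 4, and 1.26 in that of mouse 1.

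Mpo and Elane encode the myeloperoxidase and the elastase of the primary granule. Mpo lies on chromosome 11 (mm9 chr11:87607083-87617915, plus strand) beside the peroxidase genes Lpo and Epx, and Elane on chromosome 10 (chr10:79349057-79350961, plus strand), 3137 bases beyond the end of Prtn3. Mpo stood at 21.5, 97.7, 83.6 and 151 CPM in the liver stroma of mice 1 to 4. In their peritoneal stroma it stood at 321, 5.75, 0.52 and 5.86 CPM. Elane gave 5.48, 17.6, 19.9 and 28.1 CPM in liver stroma, against 65.0, 1.56, 0.244 and 0.877 CPM in peritoneal stroma. For both genes the peritoneal library of mouse 1 was the highest of the 8 stromal libraries and that of mouse 3 the lowest, and the liver library of mouse 1 was the lowest of the 4 liver libraries.

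Camp, Ngp, Ltf and Lcn2 encode proteins of the secondary granule, namely the antimicrobial peptide cathelicidin, neutrophilic granule protein, the iron-binding lactoferrin and the siderophore-binding lipocalin 2. Camp (mm9 chr9:109749889-109751970, minus strand), Ngp (chr9:110322254-110325514, plus strand) and Ltf (chr9:110921796-110945270, plus strand) lie within 1.195 megabases of chromosome 9 with 30 other protein-coding genes in that stretch, and Lcn2 lies on chromosome 2 (chr2:32240153-32243317, minus strand). Camp levels were 8.01, 22.6, 37.3 and 34.0 CPM in liver stroma and 155, 1.47, 0.672 and 1.51 CPM in peritoneal stroma. Ngp levels were 68.8, 230, 328 and 301 CPM in liver stroma and 1386, 10.9, 3.36 and 20.4 CPM in peritoneal stroma. Both genes thus ran over a wide range among peritoneal libraries, and Ngp was the most abundant of all 10 genes in the peritoneal stroma of mouse 1 on the CPM scale. Ltf was counted at 40.0, 125, 182 and 148 CPM in liver stroma and at 659, 8.91, 4.8 and 9.86 CPM in peritoneal stroma. Lcn2 was counted at 34.4, 80.2, 129 and 86.0 CPM in liver stroma and at 317, 12.4, 11.6 and 13.5 CPM in peritoneal stroma. As for the primary granule, mouse 1 had the lowest liver level and the highest peritoneal level of all 4 secondary granule genes.

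Ly6g and Retnlg stand for the later cell: Ly6g encodes the surface protein by which mouse neutrophils are sorted, and Retnlg a resistin-like secreted protein of mature neutrophils. Ly6g (mm9 chr15:74987123-74989169, plus strand) was the weakest of the 10 per length in liver stroma, with 1.78, 5.12, 5.76 and 4.95 CPM there and 22.8, 1.04, 0.55 and 0.281 CPM in peritoneal stroma. Of 287 words of 50 bases in its transcripts, 2 also occur in transcripts of its relative Ly6i, so by exact match nearly all of its sequence is its own. Reads aligned with mismatches were not examined. The cultures, which hold no leukocytes, had Ly6g at 0.367 to 0.886 CPM. Its level in the peritoneal stroma of mice 2 to 4 was thus close to that of cells other than neutrophils. Retnlg (chr16:48872721-48874611, plus strand) broke the common pattern, with 136, 48.4, 79.1 and 39.3 CPM in liver stroma and 134, 35.6, 28.5 and 27.9 CPM in peritoneal stroma. Its liver library of mouse 1 was the highest of the 4 liver libraries, whereas the other 9 genes had their lowest liver level in that library. The ratio of Mpo to Retnlg CPM was 0.158 in the liver stroma of mouse 1 and 2.02, 1.06 and 3.84 in that of mice 2 to 4. In peritoneal stroma it was 2.39 in mouse 1 and 0.162, 0.0182 and 0.21 in mice 2 to 4.

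**Figure D1:**
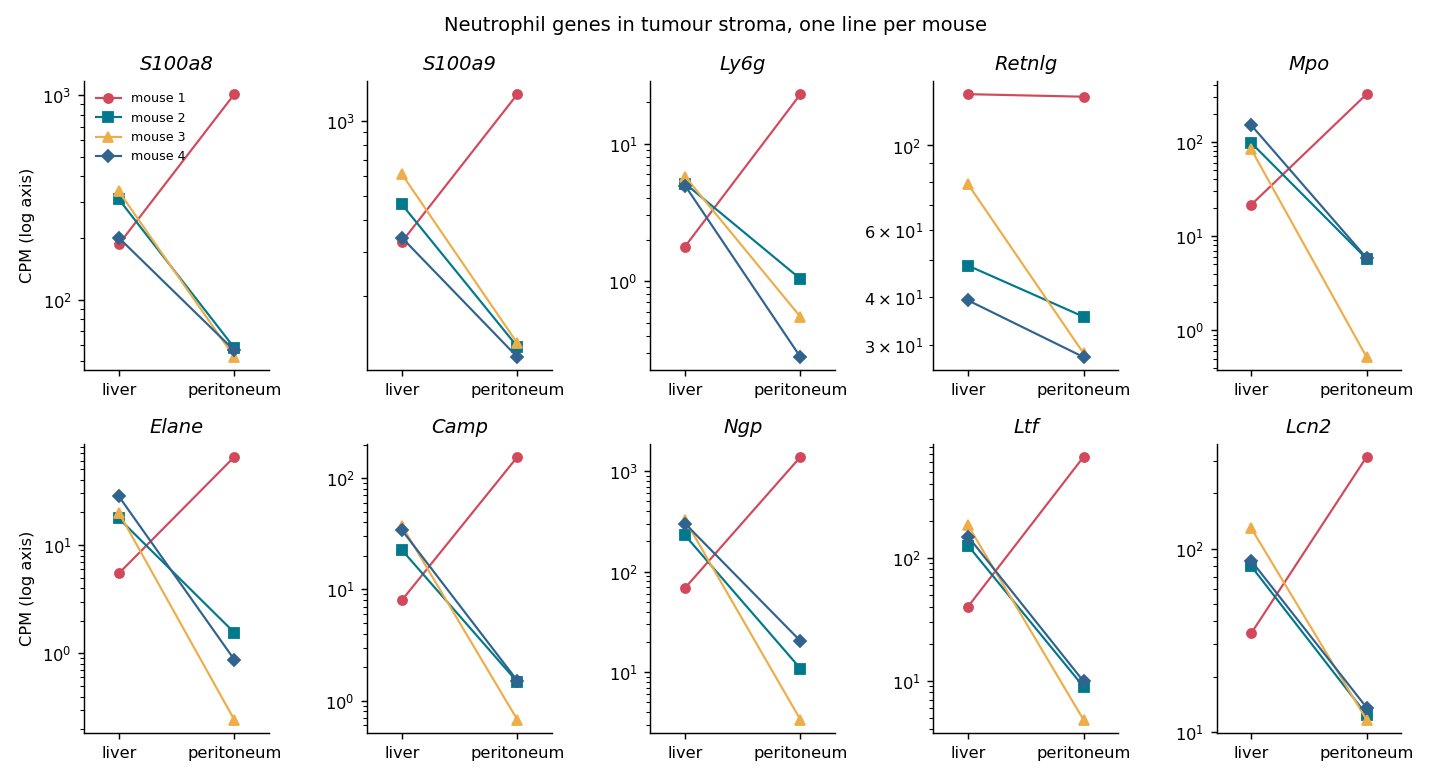
Level of each of the 10 genes in stroma as CPM on a log axis, with the liver on the left, the peritoneum on the right and 1 line for each of 4 mice. In mice 2 to 4 all 10 lines fall from liver to peritoneum; in mouse 1 they rise for 9 genes, and Retnlg stays level (136 against 134 CPM).

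Per kilobase of annotated exon, the mean order in liver stroma was S100a9, S100a8, Ngp, Retnlg, Ltf, Camp, Lcn2, Mpo, Elane and Ly6g, running from 836 ± 252 down to 13.1 ± 5.3 CPM per kilobase (SD, n = 4 mice). The neighbours S100a9 and S100a8 (659 ± 194) differed by less than their spread, as did Ltf (45.2 ± 22.1), Camp (42.4 ± 22.1) and Lcn2 (35.8 ± 16.9). In peritoneal stroma the means ran from 788 ± 1106 for S100a9 to 18.4 ± 33.1 for Ly6g, with SDs above the mean for 9 of the 10 genes, which leaves their order undefined. The medians there ran from 244 for S100a9 to 1.32 for Elane.

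The comparison of liver with peritoneal stroma asks whether neutrophil transcripts differed by tumour site. With all 8 libraries none of the 10 genes was called at an adjusted p under 0.05 and a log2 fold change beyond 1 in edgeR, where 13.3% of 14755 genes tested were called (3.36% higher in liver). None of the 10 had an unadjusted p under 0.05 either, and DESeq2 called none (13.6% of all genes), with 6 of its 10 adjusted p-values given as NA. The log2 fold changes of liver over peritoneal stroma lay between -0.74 (Camp, SE 1.39) and 0.32 (Retnlg, SE 0.56), with a median of -0.25 against 0.02 over all genes tested. With the mouse as a block, which compares the 2 sites within each animal, again none was called (13.4% of all genes were), but all 10 estimates were positive. They ran from 0.48 (Retnlg, SE 0.22, adjusted p = 0.126) to 3.54 (Ngp, SE 1.93, adjusted p = 0.198), with a median of 2.33.

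Without the peritoneal stroma of mouse 1, all 10 genes were called higher in liver stroma, where 14% of 14951 genes were called and 3.92% were higher. This library was singled out because these same genes were highest in it among the peritoneal stroma. Leaving it out therefore lowers their peritoneal mean and spread by choice. The p-values of fits without it describe the remaining libraries and are no independent test of the site. Mpo rose by 4.34 on the log2 scale (SE 0.82, adjusted p = 0.00374), Camp by 4.27 (SE 0.58, adjusted p = 0.000652) and Elane by 4.23 (SE 0.67, adjusted p = 0.00156). Ngp was higher by 4.20 (SE 0.70, adjusted p = 0.00199) and Ltf by 3.85 (SE 0.51, adjusted p = 0.000605). These 5 granule genes differed most, while Ly6g (2.69, SE 0.52), Lcn2 (2.58, SE 0.38), S100a8 (2.07, SE 0.21), S100a9 (1.68, SE 0.21) and Retnlg (1.18, SE 0.40, adjusted p = 0.0496) had smaller log2 fold changes. With mouse 1 left out at both sites, 9 of the 10 were called higher in liver, with the mouse as a block (3.8% of all genes higher) and without it (3.54%). The exception was Retnlg, at a log2 fold change of 0.71 and an adjusted p of 0.069. Counts scaled to the 5 leukocyte markers, again without the peritoneal stroma of mouse 1, also left 9 genes called higher in liver (1.7% of all genes were), with Retnlg at 0.54 and the median of all genes at -0.60. Markers of other leukocytes were also called higher in liver without that library. These were all 4 of B cells (median log2 fold change 2.53), 2 of 4 of NK cells (1.84) and 3 of 5 of eosinophils (1.15). Of 4 inflammatory monocyte markers (0.71) 2 were called higher and another, F13a1, was called lower. With all 8 libraries the 4 B cell markers and 2 NK cell markers were called higher as well. Of the monocyte markers 1 was then called higher and 1 lower, and of the eosinophil markers 0 were called. The part of these cells in the neutrophil gene result was not tested.

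**Figure D2:**
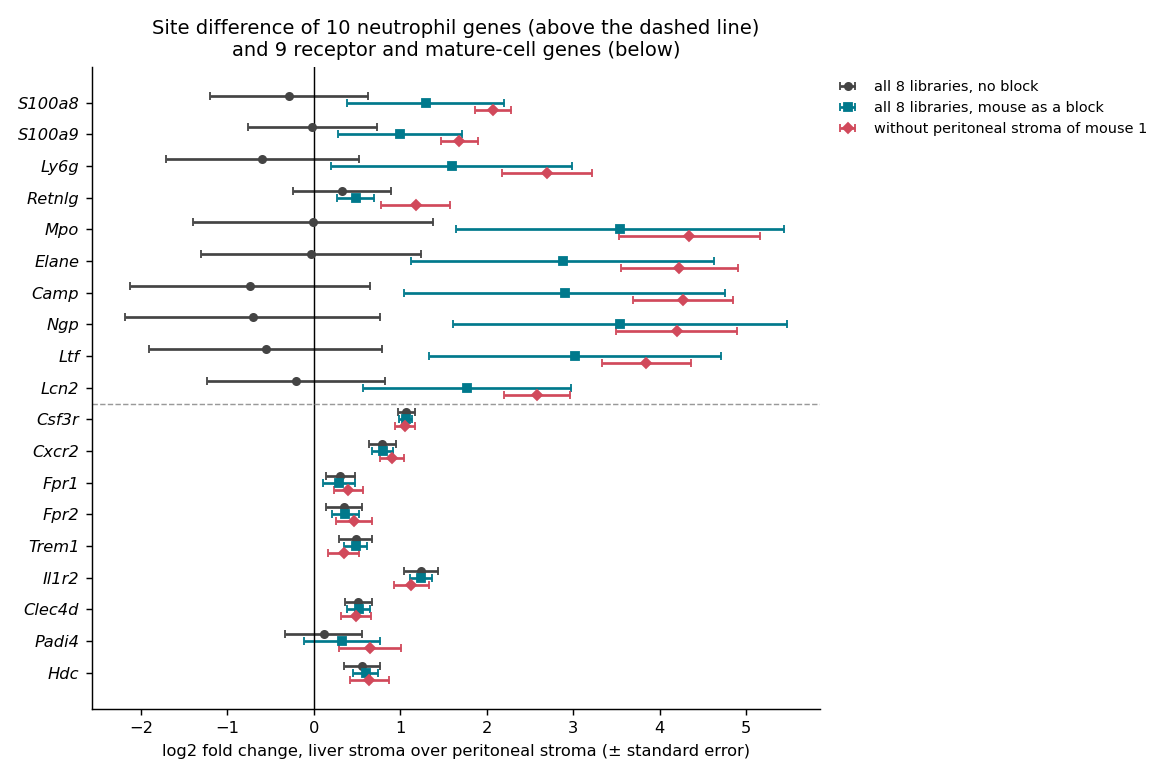
Log2 fold change of liver over peritoneal stroma with its standard error from edgeR, for the 10 genes and for 9 genes of receptors and mature cells, in 3 fits. For the 10 genes the estimates lie near 0 with all 8 libraries and between 1.18 and 4.34 without the peritoneal stroma of mouse 1, whereas the median of the 9 receptor genes is 0.51 and 0.64.

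Read within each mouse, the liver level exceeded the peritoneal level for all 10 genes in mice 2, 3 and 4. The ratios ran from 1.36 (Retnlg, mouse 2) to 161 (Mpo, mouse 3), with medians of 8.89, 24.6 and 14.9 in mice 2, 3 and 4. In mouse 1 the peritoneal level was the higher for 9 genes, by up to 20.1-fold for Ngp, and Retnlg was nearly equal with a peritoneal to liver ratio of 0.985. By lane, lane 1 had all 10 genes higher in its 1 peritoneal library than in the mean of its 2 liver libraries (1.45-fold to 10.2-fold), and lanes 2 and 3 had all 10 higher in liver (2.47-fold to 46.2-fold and 1.41-fold to 32.0-fold). The only peritoneal stromal library of lane 1 was that of mouse 1, so the lane and the mouse cannot be told apart.

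The peritoneal stroma of mouse 1 exceeded the median of the other 3 peritoneal stromal libraries by 4.70-fold for Retnlg and 10.2-fold for S100a9 up to 106-fold for Camp and 128-fold for Ngp. Over all 13361 genes with a mean of at least 1 CPM and a ratio in these libraries, the median ratio was 1.02 and 1.23% exceeded 3-fold, whereas all 10 neutrophil genes did. That library was singled out because the 10 genes were highest in it among the peritoneal stroma. Their high ratios are thus part of the choice and no separate result. Of 6 other genes of the primary granule and the precursor cell, 5 exceeded 3-fold, with Ctsg (cathepsin G) at 34.5 against 0.611 to 1.08 CPM and Prtn3 (proteinase 3) at 64.5 against 3.48 to 12.2 CPM. Of 9 genes of receptors and mature cells only Padi4, the enzyme that citrullinates histones in neutrophil traps, did so, with 30.0 against 4.83 to 16.6 CPM. Csf3r stood at 249 CPM in that library against 232 to 257 CPM in the other 3, and the 5 leukocyte markers had ratios of 1.01 to 1.16. Some markers of other cells were high in that library too. Of 5 eosinophil markers, the granule genes Epx (27.8 against 0 to 0.351 CPM) and Prg2 (94.7 against 1.38 to 2.32 CPM) exceeded 3-fold, and Siglecf, Il5ra and Ccr3 had ratios of 1.07 to 1.26. Of 4 inflammatory monocyte markers, Ly6c2 and F13a1 exceeded it with ratios of 3.34 and 3.08, and of 4 NK cell markers Nkg7 did with 4.76. Of the red cell genes, Slc4a1 stood at 13.6 CPM against 0 in the other 3 libraries and Alas2 at 2.40 against 0 to 0.246 CPM. Hbb-b1 and Hba-a1 had 0 counts in all groups of the series, cultures included, and so say nothing about that library. The part of these other cells in the neutrophil gene result was not tested.

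**Figure D3:**
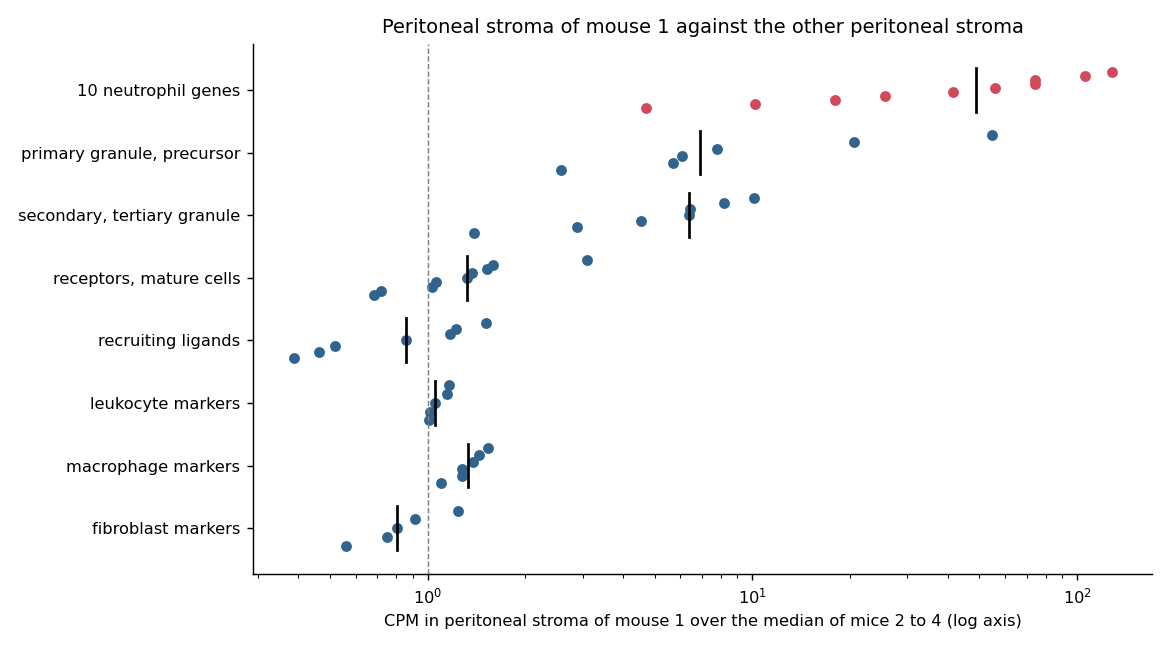
Ratio of the CPM in the peritoneal stroma of mouse 1 to the median of mice 2 to 4 on a log axis, 1 point per gene, with a black line at each list's median and a dashed line at 1. The 10 neutrophil genes (red) run from 4.70 to 128, the other granule and precursor genes have medians of 6.92 and 6.40, and the receptor genes have a median of 1.33.

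All of the genes but Retnlg moved together among the 8 stromal libraries. Pearson's r between pairs of Mpo, Elane, Camp, Ngp and Ltf, on log2(CPM + 0.5), lay between 0.968 and 0.999 over the 8 libraries and between 0.967 and 0.999 over the 7 without the peritoneal stroma of mouse 1. Retnlg had r of 0.609 to 0.688 with the same 5 genes over 8 libraries and 0.457 to 0.525 over 7. All other pairs without Retnlg lay between 0.891 (S100a9 with Mpo) and 0.996 (S100a8 with S100a9) over 8 libraries. Over 7 libraries the same pairs of genes gave 0.863 and 0.993. The granule genes were thus not a set apart from S100a8, S100a9, Ly6g and Lcn2. These values describe libraries that share mice, lanes and cell mixture, and carry no test. The 250 bases before the transcription start are shown for 4 of the granule genes, 2 of the primary and 2 of the secondary granule. Regulators of granule genes such as PU.1 and C/EBP epsilon are known to act through their promoters. Sequences are from RefSeq (GRCm38.p6), where all 10 genes were matched, are written in the direction of the gene, and have in capitals each match on either strand to AGGAAGT, a core bound by Ets factors such as PU.1, or to TTGCNNAA, a C/EBP-like site in which N is any base.
Mpo, chr11:87793534-87793783, plus strand: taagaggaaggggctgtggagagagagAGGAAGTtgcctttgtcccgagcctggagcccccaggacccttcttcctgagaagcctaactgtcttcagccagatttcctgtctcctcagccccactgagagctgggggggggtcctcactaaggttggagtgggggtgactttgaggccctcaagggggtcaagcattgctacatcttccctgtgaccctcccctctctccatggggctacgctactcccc
Elane, chr10:79886062-79886311, plus strand: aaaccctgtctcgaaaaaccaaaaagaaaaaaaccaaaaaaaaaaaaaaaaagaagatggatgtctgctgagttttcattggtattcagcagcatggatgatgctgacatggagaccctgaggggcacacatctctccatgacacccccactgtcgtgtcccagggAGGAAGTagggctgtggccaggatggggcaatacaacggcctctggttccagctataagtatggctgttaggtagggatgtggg
Ngp, chr9:110419558-110419807, plus strand: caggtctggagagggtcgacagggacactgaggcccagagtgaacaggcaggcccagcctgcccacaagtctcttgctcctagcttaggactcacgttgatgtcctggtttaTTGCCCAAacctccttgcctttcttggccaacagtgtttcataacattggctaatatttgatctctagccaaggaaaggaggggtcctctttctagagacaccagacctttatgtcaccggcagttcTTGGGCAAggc
Ltf, chr9:111019042-111019291, plus strand: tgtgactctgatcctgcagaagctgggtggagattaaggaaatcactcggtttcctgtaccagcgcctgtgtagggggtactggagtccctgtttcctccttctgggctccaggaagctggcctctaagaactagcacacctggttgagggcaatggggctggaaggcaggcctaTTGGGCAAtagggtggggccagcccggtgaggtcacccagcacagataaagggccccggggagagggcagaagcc
The 2 primary granule promoters hold AGGAAGT, which also occurs in the windows of Ly6g and S100a8 and in 7.69% of all 32851 promoter windows of this length. The 2 secondary granule promoters hold TTGCNNAA or its reverse complement, in Ngp at 2 places, and so do those of Lcn2, S100a9, Ly6g and Retnlg and 9.56% of all windows. Camp holds neither. The motifs were chosen after the sequences had been seen, and a match describes letters only.

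Other neutrophil genes were read in 3 groups, which like the 10 were not chosen blind to these data. Of 6 genes of the primary granule and the precursor (Prtn3, Ctsg, Ms4a3, Prss57, Cebpe and Gfi1), none was called between the stromata with all libraries in edgeR (none at an unadjusted p under 0.05), and 5 were higher in liver without the peritoneal stroma of mouse 1. Of 7 genes of the secondary and tertiary granules, Mmp9, the gelatinase, was called with all libraries (log2 fold change 1.04, SE 0.29, adjusted p = 0.0198), at 279 to 584 CPM in liver and 123 to 249 CPM in peritoneal stroma. All 7, Chil3, Mmp8, Mmp9, Olfm4, Pglyrp1, Cd177 and Itgb2l, were higher in liver without that library. Of 9 genes of receptors and mature cells, 2 were called higher in liver with and without it. Csf3r, the G-CSF receptor, was at 465 to 628 CPM in liver and 232 to 257 CPM in peritoneal stroma (log2 fold change 1.07, SE 0.10, adjusted p = 4.32e-05), and Il1r2, the decoy receptor for interleukin 1, at 440 to 679 and 174 to 278 CPM (1.23, SE 0.20, adjusted p = 0.00112). Cxcr2 was higher in liver as well but stayed under the fold threshold (0.79, SE 0.15, adjusted p = 0.00345). Csf3r and Il1r2 are also expressed by other myeloid cells, whose share in this result was not tested. The 5 leukocyte markers were higher in liver too, with a median log2 fold change of 0.62 and 0 called. Within mice the liver to peritoneal ratio was 2.01 to 2.67 for Csf3r and 1.96 to 3.29 for Il1r2. For the leukocyte marker Ptprc it was 1.68 to 2.04. Values of Csf3r and Il1r2 scaled to the leukocyte markers are not given here.

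Of 7 ligands that recruit or sustain neutrophils, 2 were called, both lower in liver stroma, where 1472 of all 14755 genes tested were called lower. Cxcl1, the main ligand of Cxcr2 in the mouse, was at 142 to 227 CPM in liver and 539 to 643 CPM in peritoneal stroma (log2 fold change -1.72, SE 0.16, adjusted p = 4.72e-05). Cxcl5 was at 0.744 to 2.45 CPM in liver and 6.53 to 23.2 CPM in peritoneal stroma (-3.66, SE 0.47, adjusted p = 0.000307). Cxcl2, the most abundant of the list, was at 891 to 1031 CPM in liver and 696 to 997 CPM in peritoneal stroma and did not pass the test (0.10, SE 0.12, adjusted p = 0.557). Csf3, the gene of G-CSF itself, was at 2.18 to 4.07 and 3.46 to 5.26 CPM (-0.50, SE 0.24, adjusted p = 0.139). Retnla, a relative of Retnlg by sequence, was lower in liver, with 0.912 to 2.99 CPM in liver and 14.03 to 61.9 CPM in peritoneal stroma (-4.25, SE 0.52, adjusted p = 0.000242), and Retnlb was at 0 in all 8 libraries. Ly6c1, a relative of Ly6g, was also called lower in liver, with 17.6 to 22.7 CPM there and 25.1 to 78.7 CPM in peritoneal stroma (-1.30, SE 0.31, adjusted p = 0.00958). Without the peritoneal stroma of mouse 1 it stayed under the fold threshold (-0.89).

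The sorted tumour cells served as a check on RNA carried over from the stroma. In the liver, all 10 genes were higher in stroma than in tumour cells, with no overlap between the groups (35.5% of all genes were higher in stroma without overlap) and log2 fold changes from 4.58 (Ly6g, SE 0.51, adjusted p = 5.94e-06) to 9.32 (Ltf, SE 0.60, adjusted p = 4.21e-08), where 43.9% of 14620 genes were called and 27.5% were higher in stroma. In the peritoneum 7 of 10 were called higher in stroma, where 43.6% of 14584 genes were called and 27.4% were higher, and all 10 were with the mouse as a block (27.4% of all genes higher). DESeq2 called 2 of them, S100a9 and Retnlg (29% of all genes higher), and gave the other 8 adjusted p-values as NA. Mpo (5.20, SE 2.30, adjusted p = 0.066), Camp (5.38, SE 2.25, adjusted p = 0.0553) and Ngp (5.83, SE 2.67, adjusted p = 0.0742) missed the threshold without the block. The count there ranged from 3 without the peritoneal stroma of mouse 1 (27.1% of all genes higher) to 10 without its tumour cells (29.4%), and was 4 without the tumour cells of mouse 2, 3 or 4. It was 9 of 9 tested with mouse 1 left out of both groups (28.7% of all genes higher), and 8 of 9 with the block as well (28.6%).

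Summed over the 10 genes, tumour cell libraries held 2.55 to 6.93 CPM in the liver and 1.5 to 2.53 CPM in the peritoneum of mice 2 to 4, but 110 CPM in the peritoneum of mouse 1. As a percentage of the stromal level of the same mouse and site, the 10 genes in the peritoneal tumour cells of mouse 1 lay between 1.64% and 4.32%, with a median of 2.10%. The leukocyte genes Ptprc, Coro1a and Laptm5 lay between 2.27% and 3.05% and Col1a1 and Col3a1 between 2.73% and 3.52% in that library. In the other 7 tumour cell libraries Ptprc, Coro1a and Laptm5 lay between 0.108% and 0.392%. The mouse 1 peritoneal tumour cells thus held a higher share of these leukocyte and fibroblast transcripts than the other tumour cell libraries, and the 10 neutrophil genes lay in about the same range. Itgb2 and Cd53 were at 1.17% to 22.3% in the 8 tumour cell libraries and were not used as a measure of carried RNA.

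Between liver and peritoneal tumour cells, 4 of the 10 genes passed the filter on low counts, S100a8, S100a9, Ngp and Lcn2, and edgeR called none of them (1.15% of 13074 genes were called). None had an unadjusted p under 0.05, and DESeq2 called none (1.78% of all genes), with all 4 adjusted p-values given as NA. The 6 others had exact two-sided permutation p-values of 0.571 to 1 over the 70 groupings of 8 libraries, of which the smallest possible is 0.0286. Lcn2 was at 0.851, 0.957, 0.561 and 0.708 CPM in the liver tumour cells of mice 1 to 4 and at 5.19, 0, 0.0195 and 0.113 CPM in their peritoneal tumour cells. Apart from mouse 1, its liver and peritoneal levels did not overlap. The same held for S100a8, S100a9, Ngp, Retnlg, Camp and Mpo, some of them on few counts, but not for Ltf, Ly6g and Elane. The share of all genes without overlap in these mice is not given here, so no trait particular to Lcn2 is shown. With mouse 1 left out at both sites, Lcn2 (log2 fold change 4.28, adjusted p = 0.0104), Ngp (4.26, adjusted p = 0.0112) and S100a9 (1.63, adjusted p = 0.0463) were called higher in liver tumour cells, where 1.33% of all genes were higher. With the mouse as a block in addition, 2 of the 3 remained called (1.15% of all genes were higher), and S100a9 had an adjusted p of 0.0565. Without the peritoneal tumour cells of mouse 1 alone, Ngp and Lcn2 were called higher in liver (1.15% of all genes). Mouse 1 was singled out because these same genes were high in its peritoneal libraries. The p-values of fits without it are therefore no independent test of the site. In the peritoneal tumour cells of mice 2 to 4, Lcn2 had 0, 1 and 3 counts and Ngp 2, 0 and 1. Both genes passed the filter in these fits only through the liver libraries. Scaled to the 5 leukocyte markers, 3 of the 4 genes were called lower in liver tumour cells (5.35% of all genes were), and the median of all genes moved to -0.82. In the liver tumour cells of mouse 1 the markers summed to 80.5 CPM, with Cd53 at 50.7 and Itgb2 at 23.9 CPM. In its peritoneal tumour cells they summed to 98.9 CPM, with Cd53 at 25.3 and Itgb2 at 21.9 CPM. These 2 genes were not used as a measure of carried RNA, so this scaling does not follow leukocyte content alone.

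S100a8, Ly6g, Lcn2 and single values of other genes stood above the percentages of Ptprc, Coro1a and Laptm5 in some tumour cell libraries. S100a8 was at 1.07, 0.937 and 1.02 CPM in the peritoneal tumour cells of mice 2 to 4, or 1.79% to 1.85% of the stromal level, whereas Ptprc, Coro1a and Laptm5 were at 0.108% to 0.384% there. Ly6g reached 10.9%, 7.10% and 134% of the stromal level in the same libraries, on 4, 2 and 10 counts. It was thus as abundant in the peritoneal tumour cells of mouse 4 (0.377 CPM) as in the stroma (0.281 CPM) at a level of few counts. The cultures, which hold no leukocytes, had Ly6g at 0.367 to 0.886 CPM. The part of carried RNA in its tumour cell values was not tested. In the liver tumour cells of mice 1 to 4 Lcn2 was at 2.47%, 1.19%, 0.434% and 0.824% of the stromal level, on 37, 34, 20 and 22 counts, above the 0.166% to 0.392% of the 3 leukocyte genes there. In the same libraries Ly6g was at 0.55% to 16.8%, and S100a8 was at 0.455% to 0.847% in mice 2 to 4. Among the other genes, Ltf reached 3.45% in the peritoneum of mouse 4 (9 counts) and Mpo 1.61% in the liver of mouse 1 (15 counts). S100a9 reached 0.563% in the peritoneum of mouse 4 and Ngp 0.521% in that of mouse 2.

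**Figure D4:**
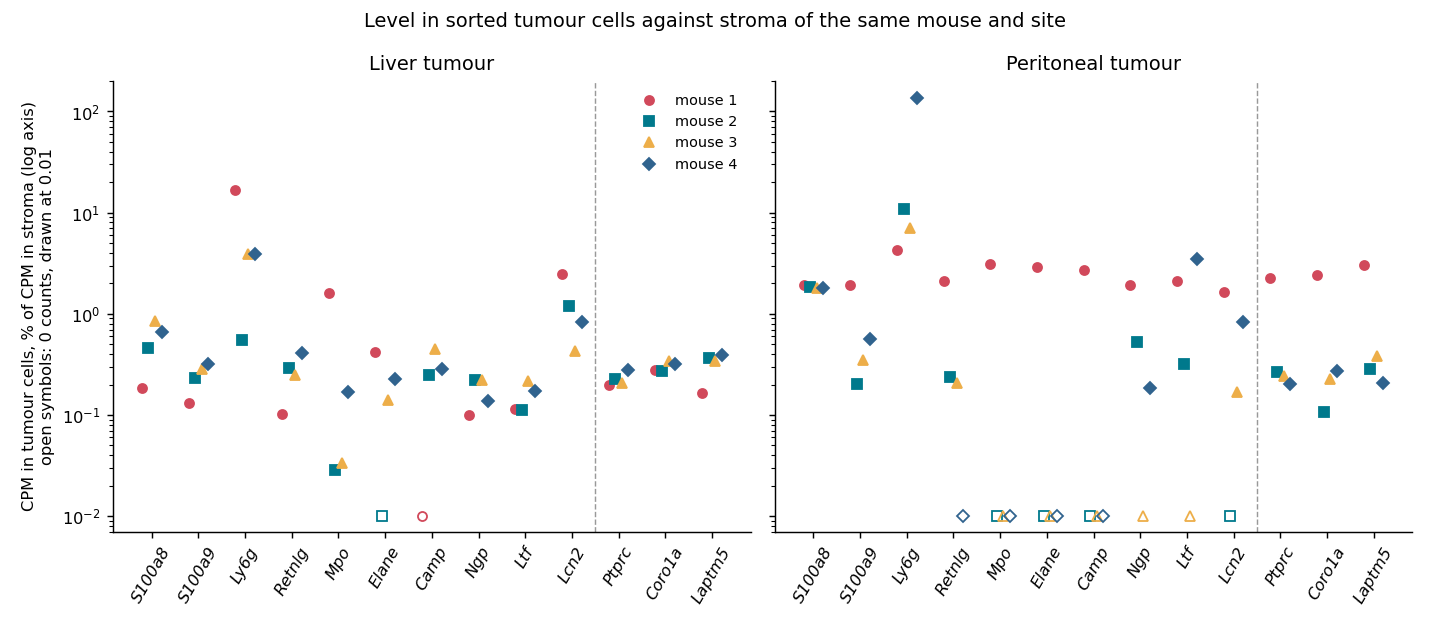
CPM in sorted tumour cells as a percentage of the CPM in stroma of the same mouse and site, on a log axis, for the 10 genes and 3 leukocyte genes right of the dashed line, with open symbols for 0 counts drawn at 0.01%. In the peritoneal tumour cells of mouse 1 all 10 genes lie at 1.64% to 4.32%, beside leukocyte genes at 2.27% to 3.05%.

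The test of whether the site difference itself differed between stroma and tumour cells called none of the 10 genes in edgeR (14.3% of 15331 genes were called), with none at an unadjusted p under 0.05. With the mouse as a block it called none either (17.3% of all genes), with 4 at an unadjusted p under 0.05. Without the peritoneal stroma of mouse 1 alone it called 7 (13% of all genes), and with mouse 1 left out of all groups it called none (12.3%), with 2 at an unadjusted p under 0.05, or 1 with the block (15.5%). DESeq2 was not run on this contrast.

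The cultures hold no leukocytes, so they show the level of these genes in the tumour cell lineage itself. Retnlg, Mpo, Camp and Ngp had 0 counts in all 9 cultures, which allows up to 0.144 CPM in the shallowest of them. Ly6g was detected in every culture at 0.559 to 0.778 CPM in control BMEL, 0.367 to 0.886 CPM in RasLOW and 0.436 to 0.850 CPM in RasHIGH cells, on 9 to 25 counts, so its ranges overlapped throughout. S100a8 was at 0.222, 0.112 and 0.291 CPM in control BMEL, 0.213, 0.147 and 0.0858 CPM in RasLOW and 0.832, 1.39 and 1.92 CPM in RasHIGH cultures. The 3 RasHIGH cultures, on 21 to 40 counts, were above the other 6, on 2 to 7 counts. The share of all genes separated in this way is not given here. S100a8 passed the filter on low counts only through the RasHIGH cultures.

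In edgeR, S100a8 had a log2 fold change of 2.72 (SE 0.51, adjusted p = 0.0106) in RasHIGH over control BMEL and of 3.15 (SE 0.56, adjusted p = 0.103) over RasLOW. At the threshold used for cultures, an adjusted p under 0.01 and a log2 fold change beyond 1.5, it was not called in either, and neither was S100a9 or Ly6g where tested. The share of genes called was 6.03% for RasHIGH and 0.772% for RasLOW against control BMEL and 0% between the Ras populations. S100a8 was called in both RasHIGH comparisons by an unadjusted p under 0.01 (9.65% and 2.12% of all genes) and by DESeq2 (9.42% and 1.45%). Ly6g was the only gene of the 10 tested for RasLOW against control BMEL, and neither edgeR, also unadjusted, nor DESeq2 (4.01% of all genes) called it. Ltf had 12, 12 and 6 counts in the control BMEL cultures (0.249 to 0.447 CPM), 0 in all RasLOW cultures and 0, 2 and 0 in RasHIGH cultures, with an exact two-sided permutation p of 0.1 in each comparison with control BMEL, the smallest that 3 cultures against 3 allow. Of the other neutrophil genes, Gfi1, a transcriptional repressor of granulocyte precursors, was called higher in RasHIGH than in control BMEL (5.15, SE 0.73, adjusted p = 0.0036), at 1.34 to 5.27 against 0.0371 to 0.125 CPM. Padi4 was called as well (6.22, SE 0.83, adjusted p = 0.00292), at 1.39 to 3.13 against 0 to 0.083 CPM. Gfi1 and Padi4 were named from the other neutrophil lists because they were called. Both passed the filter on low counts only through the RasHIGH cultures, so their calls are a description of those cultures. Of the control BMEL cultures 2 of 3 were sequenced in another lane than the Ras cultures, so differences from control BMEL and between these lanes cannot be fully told apart.

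The 10 genes outside the set whose level over the 8 stromal libraries was most like the mean of S100a8, S100a9, Ly6g and Retnlg, by Pearson's r of log2(CPM + 0.5) among 13447 genes, were Chil5, Itgb2l, Wfdc21, Mmp8, Lin28a, Cd177, Ptpro, Pglyrp1, Slc28a2 and Vti1b, with r from 0.962 to 0.989. Mmp8 (collagenase of neutrophil granules) was at 26.5 to 50.1 CPM in liver stroma, 122 CPM in the peritoneal stroma of mouse 1 and 13.01 to 17.0 CPM in the other 3. Cd177, a surface protein of neutrophils, was at 53.9 to 110 CPM in liver stroma, at 150 CPM in the peritoneal stroma of mouse 1 and at 20.3 to 27.7 CPM in the other 3. Both were picked by their likeness over libraries that include the high peritoneal library of mouse 1. Their high level there is thus part of the choice and no separate result. Without that library none of the 10 was among the 10 most alike, although their r stayed between 0.951 and 0.979. Mmp8 then ranked 197 and Cd177 ranked 61.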

How the data were processed

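RNA was sequenced from 9 cultures and 16 sorted cell samples of 4 mice (25 libraries, total counts 20818989 to 51241336). The deposited table holds raw read counts per gene, which per the study's methods the authors made from reads aligned to mm9 with TopHat2. The submitters' processing notes also name Bowtie 0.12.2, FastQC and the builds mm8 and mm10, and the counting program, the strand setting and the annotation are not given in the sources used here. CPM is the count divided by the library total, in units of 1e+06. Limits set by 3 counts cover counting error only. Samples were grouped by their titles. Labels pair liver and peritoneum, stroma and tumour cells by mouse. Deviations from the group means correlated at -0.01 to 0.36 between the 2 stromata of a mouse and at -0.20 to 0.06 between its tumour cells. Nothing in the labels says that cultures were grown separately, although the paper's methods describe the cell line samples as 3 independent biological ones. The p-values there measure the spread between these samples, and its technical part is not known.

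Groups were compared with edgeR 4.0.16 (quasi-likelihood F-test, TMM, filterByExpr with a minimum count of 10, Benjamini-Hochberg adjustment over all genes tested). Sorted cells were called at an adjusted p under 0.05 and an absolute log2 fold change above 1, cultures at 0.01 and 1.5. Alternatives were DESeq2 1.42.0, RLE scaling, no filter, unadjusted p, the mouse or replicate number as a block, one fit of all sorted libraries, scaling to leukocyte markers and leaving out each replicate. Leaving mouse 1 out at both sites, and leukocyte scaling without the peritoneal stroma of mouse 1, were chosen after seeing the data. Leaving out each replicate was planned, but the fits without a peritoneal library of mouse 1 were singled out in the text after seeing the data. The fits were tested on simulated data. Genes that failed the filter were compared with an exact two-sided permutation test of mean CPM. Positions are from GENCODE M1 (mm9) and promoters from RefSeq (GRCm38.p6). The text names the 10 genes, the genes of the other neutrophil lists that were called between the stromata or in the cultures with some others by level, and the 10 genes most like the mature markers. For stroma against tumour cells only the 10 genes are given. Beyond that rule, Cd177, Mmp8, Padi4, Ctsg, Prtn3 and the markers high in the peritoneal stroma of mouse 1 were named after their values were seen. The members and lists were chosen with earlier results of these data known. One marker of the red cell list is not reported here.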

Additional observations from a re-analysis of the deposited data

Results flagged for a closer look

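Among the 40 sets of 4 libraries formed by the 10 genes and the 4 sorted groups, 19 had a library that stood apart: the gap from the extreme library to the nearest other, divided by the range of the set, exceeded the 95% critical value of Dixon's test for 4 samples, which chance passes in about 1 of 20 sets. Every one of the 19 was the highest library and came from the peritoneum of mouse 1, and none was in the liver. The 10 genes are not independent of each other in a library. In peritoneal stroma the ratio was 0.994 for S100a8, 0.987 for S100a9, 0.966 for Ly6g, 0.928 for Retnlg, 0.983 for Mpo, 0.98 for Elane, 0.995 for Camp, 0.988 for Ngp, 0.992 for Ltf and 0.994 for Lcn2. In peritoneal tumour cells it was 0.993 for S100a8, 0.984 for S100a9, 0.97 for Retnlg, 0.998 for Ngp, 0.975 for Ltf, 0.978 for Lcn2 and 1 for Mpo, Elane and Camp, whose other 3 libraries had 0 counts. Ly6g did not stand apart in tumour cells. Both libraries of this mouse were sequenced in lane 1, which held no other peritoneal library, so mouse, site sample and lane cannot be told apart.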

How the results depend on the processing

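In stroma, liver over peritoneum, the mouse as a block turned 9 log2 fold changes positive without a call: S100a8 1.296, S100a9 0.99, Ly6g 1.59, Mpo 3.54, Elane 2.88, Camp 2.90, Ngp 3.54, Ltf 3.02 and Lcn2 1.78. One fit of all 16 sorted libraries gave S100a9 0.052, Mpo 0.056 and Elane 0.040, and leukocyte scaling gave Retnlg -0.30, also with no call. Leukocyte scaling without the peritoneal stroma of mouse 1 called 9, with S100a8 1.47, S100a9 1.07, Ly6g 2.07, Mpo 3.74, Elane 3.60, Camp 3.65, Ngp 3.62, Ltf 3.24 and Lcn2 1.97. In tumour cells the block gave S100a9 0.33, Ngp 1.18 and Lcn2 2.20, and leukocyte scaling called 3. Stroma against tumour cells in the peritoneum had 2 calls in DESeq2. RasHIGH against control BMEL had 1 call in DESeq2 and 1 by unadjusted p, and RasHIGH against RasLOW likewise 1 and 1. The cause of these changes was not tested.

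With replicates left out, calls ranged from 0 to 10 between the stromata, 0 to 3 between the tumour cells, 3 to 10 for stroma against tumour cells in the peritoneum, 0 to 1 for RasHIGH against control BMEL (1 without RasHIGH replicate 1) and 0 to 7 for the interaction. Between the stromata the log2 fold change ranged from -0.64 to 2.19 for S100a8, -0.33 to 1.79 for S100a9, -1.001 to 3.02 for Ly6g, -0.13 to 1.18 for Retnlg, -0.43 to 4.83 for Mpo, -0.45 to 4.57 for Elane, -1.15 to 4.57 for Camp, -1.12 to 4.68 for Ngp, -0.97 to 4.15 for Ltf and -0.57 to 2.83 for Lcn2. Between the tumour cells it ranged from -2.48 to 0.97 for S100a8, -2.95 to 1.66 for S100a9, -4.37 to 4.28 for Ngp and -1.18 to 4.33 for Lcn2. In cultures it ranged from -0.12 to 0.33 for Ly6g and -0.12 to 1.44 for S100a9 in RasHIGH against control BMEL, and from -0.81 to 0.025 for Ly6g in RasLOW against control BMEL. All 10 genes stayed called in liver stroma against tumour cells under every alternative run.

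Over all genes, calls moved from 95 to 494 (DESeq2), 542 (unadjusted) and 1 (block) for RasLOW and from 743 to 1161 and 1190 for RasHIGH against control BMEL, from 0 to 174 and 253 between the Ras populations, from 150 to 233, 460, 50 (block) and 728 (leukocyte scaling) between tumour cells, and from 1968 to 3141 (leukocyte scaling) between stromata. Culture numbers did not pair samples (correlations -0.70 to 0.35). Counts of a few reads limit the 10 genes in tumour cells and cultures.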
